A study of Homo sapiens with 16 samples.

Results

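The 10 genes described here encode 3 groups of enzymes that write, keep or remove repressive marks on chromatin. They are the core of Polycomb repressive complex 2 (EZH2, EZH1, SUZ12 and EED), the DNA methyltransferases (DNMT1, DNMT3A and DNMT3B) and the TET enzymes (TET1, TET2 and TET3). They were taken by symbol, with earlier results of these data known. All 10 were among the 27037 gene symbols of the count table, and all 10 passed the filter on low counts that left 15415 genes for testing.

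Poly(A) RNA-seq was carried out on SK-N-BE(2)C, a neuroblastoma cell line that carries amplified MYCN. The 4 groups had 4 replicates each. They received vehicle (DMSO), 10 µM retinoic acid (RA, the ligand of the retinoic acid receptors), 1 µM palbociclib (PB, which blocks the kinases CDK4 and CDK6 that drive cells into S phase) or both agents (PB+RA). Treatment lasted several days according to the study's methods. All 16 libraries come from 1 line in culture. Replicates are different passages by the study's methods, so p-values measure the spread between passages of that line. Library totals ran from 19515779 to 31620821 counts. All 9 listed markers of adrenergic neuroblastoma were measured, with MYCN at 2618 to 3304 CPM (a gene's count relative to its library's total) in DMSO. MYCN was at 2378 to 3219 CPM with RA, 5081 to 6337 CPM with PB and 3670 to 5451 CPM with PB+RA. The markers moved in both directions. GATA3 averaged 107 CPM in DMSO, 58.1 CPM with RA and 185 CPM with PB. From DMSO to PB+RA the mean of ISL1 went from 71.1 to 51.8 CPM and that of TH from 85.9 to 323 CPM. The leukocyte gene PTPRC and the endothelial gene PECAM1 did not exceed 0.285 and 0.0512 CPM in any library. The fibroblast and pericyte genes PDGFRB and COL1A1 were at 82.8 to 93.8 and 19.8 to 29.0 CPM in DMSO. They were at 109 to 124 and 39.7 to 71.99 CPM with RA, and at 60.8 to 76.1 and 15.6 to 32.8 CPM with PB. YAP1, listed for mesenchymal type neuroblastoma, was at 0.851 to 1.97 CPM in DMSO, 1.76 to 4.78 CPM with RA and 0.362 to 0.629 CPM with PB. PRRX1, listed for the same type, was not in the count table. The epithelial gene EPCAM was at 0.194 to 0.367 CPM in DMSO and 2.66 to 3.10 CPM with PB+RA. The part of these markers in the results was not tested. In every group replicates 1 and 2 stood apart from replicates 3 and 4 along the third principal component, so values are also given within each pair of replicates where they differ.

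On GRCh37 (hg19), the build the reads were aligned to, EZH2 spans chr7:148504349-148581413, EZH1 chr17:40852293-40897067, SUZ12 chr17:30264026-30328057 and EED chr11:85912254-85989855. DNMT1 spans chr19:10244018-10341962, DNMT3A chr2:25450724-25565459 and DNMT3B chr20:31350191-31397165. TET1 spans chr10:70320094-70454244, TET2 chr4:106067032-106200973 and TET3 chr2:74212037-74335303, all by GENCODE.

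PRC2 places methyl groups on a lysine in the tail of histone H3, a mark of silenced genes. EZH2 and EZH1 are its alternative catalytic subunits, and SUZ12 and EED are required for assembly and activity. EZH2 is known to be abundant in dividing cells and is a target of the E2F factors that CDK4/6 activity releases, whereas EZH1 is known to persist in cells that have stopped dividing. DNMT1 copies DNA methylation onto the new strand after replication, DNMT3A and DNMT3B set methylation anew, and the TET enzymes oxidise methylcytosine as the first step of its removal.

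Promoter sequence of 4 of these genes is shown because each held a word of the E2F consensus, and because 3 of them (EZH2, SUZ12 and DNMT1) fell in cells given PB+RA while EZH1, the paralog of EZH2, did not. The windows run from 250 bases before to 50 bases after a transcript start annotated by RefSeq on GRCh38.p14, and all 10 genes had at least 1 window (20 in all). The searched words were TTTCCCGC, TTTCGCGC, TTTGGCGC and TTTGCCGC on both strands, and the capitals mark the match. EZH2 lies at chr7:148884242-148884541, minus strand. DNMT1 lies at chr19:10194904-10195203, minus strand. SUZ12 lies at chr17:31936757-31937056, plus strand. EZH1 lies at chr17:42744991-42745290, minus strand. Each is written 5′ to 3′ along the gene's own strand.
EZH2: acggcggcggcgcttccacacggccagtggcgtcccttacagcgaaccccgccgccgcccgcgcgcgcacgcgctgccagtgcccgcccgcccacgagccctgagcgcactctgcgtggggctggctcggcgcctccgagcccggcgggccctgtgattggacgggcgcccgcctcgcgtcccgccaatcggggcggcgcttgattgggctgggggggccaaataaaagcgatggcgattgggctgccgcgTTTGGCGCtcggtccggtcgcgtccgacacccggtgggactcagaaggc
DNMT1: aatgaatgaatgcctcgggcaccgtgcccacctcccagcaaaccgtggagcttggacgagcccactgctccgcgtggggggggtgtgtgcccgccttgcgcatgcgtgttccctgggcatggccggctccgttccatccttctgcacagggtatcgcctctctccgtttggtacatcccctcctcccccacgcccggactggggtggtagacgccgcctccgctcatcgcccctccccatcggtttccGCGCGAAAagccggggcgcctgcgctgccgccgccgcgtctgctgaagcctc
SUZ12: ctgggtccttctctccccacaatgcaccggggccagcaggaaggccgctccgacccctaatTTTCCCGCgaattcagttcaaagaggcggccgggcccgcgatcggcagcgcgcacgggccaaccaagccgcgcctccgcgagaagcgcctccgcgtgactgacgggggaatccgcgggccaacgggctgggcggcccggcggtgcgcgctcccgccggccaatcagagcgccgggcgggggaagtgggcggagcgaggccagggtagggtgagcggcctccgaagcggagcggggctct
EZH1: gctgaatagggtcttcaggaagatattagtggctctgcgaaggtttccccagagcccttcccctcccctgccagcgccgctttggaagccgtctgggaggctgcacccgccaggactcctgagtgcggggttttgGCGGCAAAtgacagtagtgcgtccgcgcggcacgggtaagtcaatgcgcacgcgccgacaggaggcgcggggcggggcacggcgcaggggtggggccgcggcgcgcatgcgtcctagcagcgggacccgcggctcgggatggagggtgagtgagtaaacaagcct

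The first capital stands at base 2 of the transcript in EZH2, at -2 in DNMT1, at -189 in SUZ12 and at -115 in EZH1, counted from the start with no base 0, and the word reads on the opposite strand in DNMT1 and EZH1. Of 35116 promoter windows of the same length, 3.31% held such a word. The windows of EED, DNMT3B and TET1, which also fell with PB+RA, held no such word. Neither did those of DNMT3A, TET2 and TET3 or the other EZH2 window. The EZH2 window shown also held 4 CCAAT words (either strand), the other windows of the 10 genes held at most 2, and 34.6% of all windows held at least 1. No word of one motif shared bases with a word of another. The word AGGTCA, the core of retinoic acid receptor sites, was found in 2 of the 6 DNMT3A windows and 1 of the 3 TET1 windows, against 13.8% of all windows. The 2 DNMT3A windows overlap and hold the same site, so they are not separate matches. Windows of the other genes held no such word. The number of CpG dinucleotides per window was 46 in EZH2, 40 in SUZ12, 30 in DNMT1 and EZH1, 16 in EED and 3 in DNMT3B, with a median of 14 over all windows. A match of letters is a description of the sequence, and binding was not measured here.

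EZH2, the catalytic subunit of PRC2 in dividing cells, fell with PB and with PB+RA. Its level was 119, 121, 123 and 121 CPM in DMSO replicates 1 to 4. With RA it was 112, 116, 116 and 114 CPM. With PB it was 39.3, 38.7, 52.04 and 51.8 CPM, and with PB+RA 27.9, 29.6, 36.2 and 38.2 CPM. Every PB and PB+RA library lay below every DMSO and RA library, and replicates 1 and 2 were lower than replicates 3 and 4 in both PB groups. The log2 fold change was -1.41 ± 0.10 (SE), adjusted p = 1.76e-08 with PB, to 37.6% of the DMSO level. It was -1.91 ± 0.11 (SE), adjusted p = 1.62e-10 with PB+RA, to 26.7%. Adjusted p-values come from edgeR, by its quasi-likelihood test, and were adjusted over the 15415 genes by the Benjamini-Hochberg method. A gene is called where the adjusted p is below 0.05 and the absolute log2 fold change exceeds 0.5. Within replicates 1 and 2 the PB change was -1.63, and within replicates 3 and 4 it was -1.28. With RA alone EZH2 differed from DMSO by -0.09 ± 0.10 (SE), adjusted p = 0.536. Its RA libraries did not overlap its DMSO libraries. The fit uses 1 estimate of spread for all 4 groups, and with only the compared groups in the fit the adjusted p was 0.0764. Against PB alone, PB+RA was lower on the log2 scale, at -0.49 ± 0.11 (SE), adjusted p = 0.00163, just under the fold minimum. That change was past the minimum without PB replicate 1 (-0.55), PB replicate 2 (-0.57), PB+RA replicate 3 (-0.54) or PB+RA replicate 4 (-0.55). It was also past the minimum within replicates 3 and 4 (-0.51).

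EZH1, the alternative catalytic subunit, was not called in any comparison. It was at 24.2, 20.5, 23.3 and 26.98 CPM in DMSO and 19.9, 20.3, 24.7 and 24.9 CPM with RA. It was at 24.9, 27.3, 28.8 and 30.8 CPM with PB and 31.5, 29.5, 34.6 and 29.6 CPM with PB+RA. The PB libraries overlapped the DMSO libraries, and every PB+RA library lay above them. The log2 fold change against DMSO was 0.24 ± 0.10 (SE), adjusted p = 0.0504 with PB and 0.37 ± 0.10 (SE), adjusted p = 0.00309 with PB+RA, under the fold minimum in both. After correction for GC content and length the PB+RA value was 0.21 (adjusted p = 0.0523). Adding the replicate number to the fit as a block gave a PB value of 0.24 (adjusted p = 0.00786). Block and correction together gave 0.13 (adjusted p = 0.0997) with PB. Against RA alone PB+RA was higher by 0.46 ± 0.10 (SE), adjusted p = 0.000804, and it was past the fold minimum without RA replicate 3, RA replicate 4 or PB+RA replicate 4 (0.53, 0.53 and 0.51). Over 21 alternatives this change ran from 0.37 to 0.58 and was called in 5, including that with no fold minimum.

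SUZ12, the scaffold subunit, fell with PB+RA. Its level was 55.2, 63.7, 62.8 and 59.03 CPM in DMSO and 53.8, 51.6, 50.4 and 48.9 CPM with RA. It was 42.8, 41.2, 44.7 and 51.1 CPM with PB and 28.3, 31.6, 38.3 and 38.5 CPM with PB+RA. All treated libraries lay below all DMSO libraries, while PB replicate 4 overlapped the RA range. The log2 fold change was -0.85 ± 0.09 (SE), adjusted p = 5.22e-07 with PB+RA, which is called. With PB it was -0.42 ± 0.09 (SE), adjusted p = 0.00102, under the fold minimum. Without PB replicate 4 the PB change was -0.52 and past it, as it was within replicates 1 and 2 (-0.51). With RA it was -0.24 ± 0.09 (SE), adjusted p = 0.0488. Against PB alone, PB+RA was lower without overlap, at -0.43 ± 0.09 (SE), adjusted p = 0.00192, under the fold minimum. Within replicates 1 and 2 this change was -0.505 and past it. Against RA, PB+RA was lower, at -0.60 ± 0.09 (SE), adjusted p = 3.94e-05. That call was lost within replicates 3 and 4 (-0.38), and after the GC and length correction the value was -0.498. A pseudogene copy, SUZ12P1, had 22.8% of the SUZ12 level on average. Whether reads of either gene were lost or counted for the other was not tested, and this share does not measure it.

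EED, which binds the methylated histone tail and stimulates the enzyme, fell with PB and with PB+RA. Its level was 35.00, 35.1, 39.02 and 36.00 CPM in DMSO and 27.9, 28.3, 28.8 and 28.9 CPM with RA. It was 18.7, 20.6, 19.9 and 23.2 CPM with PB and 17.2, 16.9, 20.1 and 17.5 CPM with PB+RA. The DMSO, RA and PB ranges were separate, and the PB and PB+RA ranges overlapped. Its log2 fold change was -0.82 ± 0.07 (SE), adjusted p = 1.28e-07 with PB and -1.05 ± 0.07 (SE), adjusted p = 2.41e-09 with PB+RA. With RA the change was -0.36 ± 0.07 (SE), adjusted p = 0.00119, under the fold minimum. Between PB and PB+RA the EED value was -0.23 ± 0.07 (SE), adjusted p = 0.0229, also under the minimum, with 3 of 4 same-numbered pairs lower. It was -0.13 (adjusted p = 0.181) after the GC and length correction, and the adjusted p was 0.114 with only the compared groups in the fit. An antisense long noncoding RNA shares 221 exonic bases with EED, and the strand setting of the counting is not given in the sources used here.

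**Figure D1:**
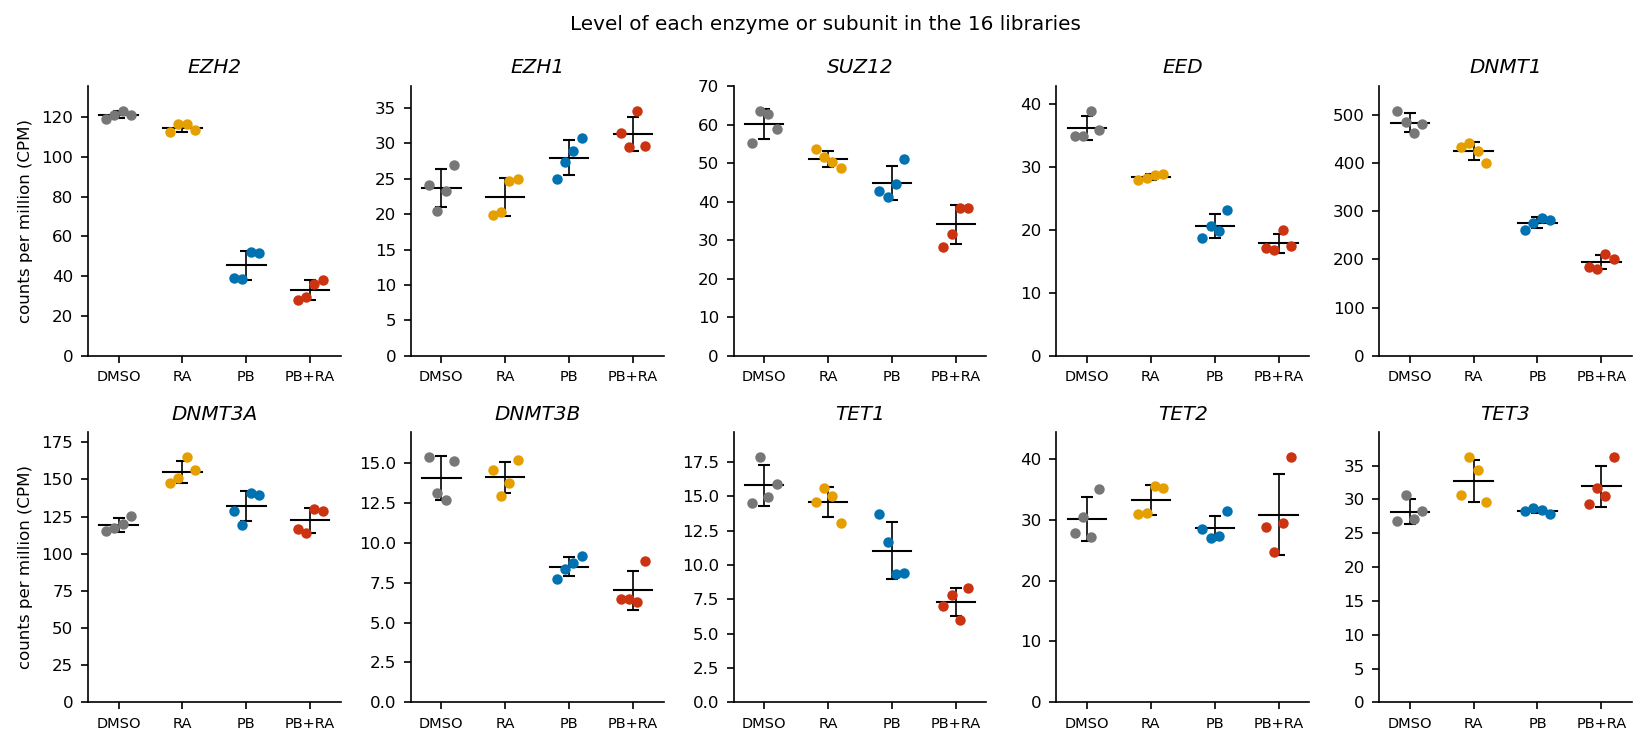
Level of each of the 10 genes in CPM (vertical axes, each from 0) in the 4 groups, with 1 point per library in the order of replicates 1 to 4 and bars for the mean ± SD. EZH2, SUZ12, EED, DNMT1, DNMT3B and TET1 had their lowest group mean with PB+RA, while the PB+RA means of EZH1, DNMT3A, TET2 and TET3 lay at or above their DMSO means.

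DNMT1, the maintenance methyltransferase and the most abundant of the 10 transcripts, fell with PB and further with PB+RA. Its level was 509, 484, 461 and 480.3 CPM in DMSO and 432, 442, 424 and 399.8 CPM with RA. It was 261, 275, 287 and 281 CPM with PB and 184, 180.2, 211 and 201 CPM with PB+RA. None of the 4 ranges overlapped. The log2 fold change was -0.81 ± 0.06 (SE), adjusted p = 7.93e-09 with PB, to 57.1% of DMSO, and -1.35 ± 0.06 (SE), adjusted p = 6.52e-12 with PB+RA, to 39.3%. With RA it was -0.20 ± 0.06 (SE), adjusted p = 0.0112, under the fold minimum, and -0.38 (adjusted p = 0.000119) after the GC and length correction. PB+RA was lower than PB alone by -0.54 ± 0.06 (SE), adjusted p = 1.81e-06, a call that was lost without PB replicate 3 (-0.499) and within replicates 3 and 4 (-0.49). DNMT1 shares 83 exonic bases on its own strand with S1PR2, which averaged 29.6 CPM.

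DNMT3A, which methylates DNA that carried no mark before, was not called against DMSO in any group. Its level was 115, 117, 120.2 and 126 CPM in DMSO and 147, 151, 165 and 156 CPM with RA. It was 129, 119, 141 and 139 CPM with PB and 116, 114, 130.0 and 129 CPM with PB+RA. Every RA library lay above every library of the other 3 groups, and the PB+RA range overlapped the DMSO range. With RA the log2 fold change was 0.37 ± 0.06 (SE), adjusted p = 0.000256, under the fold minimum, and 0.19 after the GC and length correction (adjusted p = 0.0193). With PB it was 0.15 ± 0.06 (SE), adjusted p = 0.0549, and -0.03 after that correction. Adding the replicate number to the fit as a block gave a PB value of 0.14 (adjusted p = 0.00424). Block and correction together gave -0.03 (adjusted p = 0.523) with PB. With PB+RA the change was 0.01 ± 0.06 (SE), adjusted p = 0.926, and -0.24 after the correction alone (adjusted p = 0.00289). Against RA alone PB+RA was lower, at -0.36 ± 0.06 (SE), adjusted p = 0.000108.

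DNMT3B, the other de novo methyltransferase, fell with PB and with PB+RA and was not called with RA alone. Its level was 15.4, 13.1, 12.6 and 15.1 CPM in DMSO and 14.5, 12.9, 13.7 and 15.2 CPM with RA. It was 7.72, 8.37, 8.75 and 9.14 CPM with PB and 6.48, 6.47, 6.26 and 8.86 CPM with PB+RA. PB+RA replicate 4 stood above the other 3 PB+RA libraries and within the PB range. The log2 fold change was -0.72 ± 0.11 (SE), adjusted p = 3.9e-05 with PB and -1.03 ± 0.11 (SE), adjusted p = 4.67e-07 with PB+RA. With RA it was -0.00 ± 0.11 (SE), adjusted p = 0.981, with a 95% interval of -0.23 to 0.23. The change from PB to PB+RA was -0.31 ± 0.11 (SE), adjusted p = 0.0423, under the fold minimum, and its adjusted p was 0.132 with only the compared groups in the fit.

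TET1, an oxidase of methylcytosine, was called lower with PB and with PB+RA. Its level was 14.5, 17.9, 14.9 and 15.9 CPM in DMSO and 14.6, 15.6, 15.03 and 13.1 CPM with RA. It was 13.7, 11.7, 9.32 and 9.42 CPM with PB and 7.04, 7.79, 5.98 and 8.35 CPM with PB+RA. The PB+RA libraries lay below all others, and PB replicate 1 lay inside the RA range. The log2 fold change was -1.15 ± 0.13 (SE), adjusted p = 6.44e-07 with PB+RA, to 45.2% of DMSO. With PB it was -0.52 ± 0.12 (SE), adjusted p = 0.00224, only just past the fold minimum. It fell under the minimum on leaving out DMSO replicate 2 (-0.48), or replicate 3 (-0.47) or 4 (-0.48) of the PB group. The PB change was -0.36 within replicates 1 and 2, where it was not called, and -0.76 within replicates 3 and 4. PB+RA was lower than PB alone by -0.63 ± 0.13 (SE), adjusted p = 0.00118, a call lost without PB replicate 1 (-0.499) and within replicates 3 and 4 (-0.43).

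TET2 and TET3, which carry out the same oxidation as TET1, were not called in any comparison. TET2 was at 27.8, 30.4, 27.1 and 35.03 CPM in DMSO, 31.00, 31.1, 35.5 and 35.1 CPM with RA and 28.5, 27.04, 27.4 and 31.4 CPM with PB. With PB+RA it was at 28.7, 24.7, 29.5 and 40.3 CPM, where replicate 4 was the highest of all 16 libraries. TET3 was at 26.8, 30.7, 27.1 and 28.3 CPM in DMSO, 30.6, 36.3, 34.3 and 29.6 CPM with RA and 28.3, 28.7, 28.4 and 27.8 CPM with PB. With PB+RA it was at 29.3, 31.7, 30.5 and 36.2 CPM. Both genes had overlapping ranges in DMSO and every treated group. With PB+RA the log2 change was 0.00 ± 0.12 (SE), adjusted p = 0.978 for TET2 with a 95% interval of -0.24 to 0.25. For TET3 it was 0.15 ± 0.08 (SE), adjusted p = 0.0917 with an interval of -0.01 to 0.31. TET3 with RA was at 0.21 ± 0.08 (SE), adjusted p = 0.0432, and at 0.04 after the GC and length correction. The sign of the TET2 and TET3 values with PB and with PB+RA changed under that correction or in smaller sets of replicates, so no direction is given for them. TET3 shares 390 exonic bases with a long noncoding RNA on the same strand.

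Counted over the 10 genes, PB against DMSO called 5 lower (EZH2, EED, DNMT1, DNMT3B and TET1) and 0 higher. Of all 15415 genes, 11.3% were called lower and 16.9% higher in that comparison. RA against DMSO called 0 of the 10 in either direction by edgeR's test, DESeq2 or limma-voom, where 2.54% of all genes were called lower and 10.8% higher. At an unadjusted p below 0.05 it had 3 lower and 2 higher. Of the 10, 5 had an adjusted p below 0.05 with RA but lay under the fold minimum (SUZ12, EED, DNMT1, DNMT3A and TET3). PB+RA against DMSO called 6 lower (the same genes and SUZ12) and 0 higher, beside 17.9% of all genes lower and 24% higher. The median log2 fold change of the 10 genes was -0.94 with PB+RA, -0.47 with PB and -0.09 with RA. Over all genes tested the medians were 0.04, 0.03 and 0.01. The 3 comparisons share the DMSO libraries. DESeq2 and limma-voom also called 0 higher in these comparisons, and at an unadjusted p below 0.05 edgeR's test had 2 of the 10 higher with PB (EZH1 and DNMT3A) and 1 with PB+RA (EZH1).

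**Figure D2:**
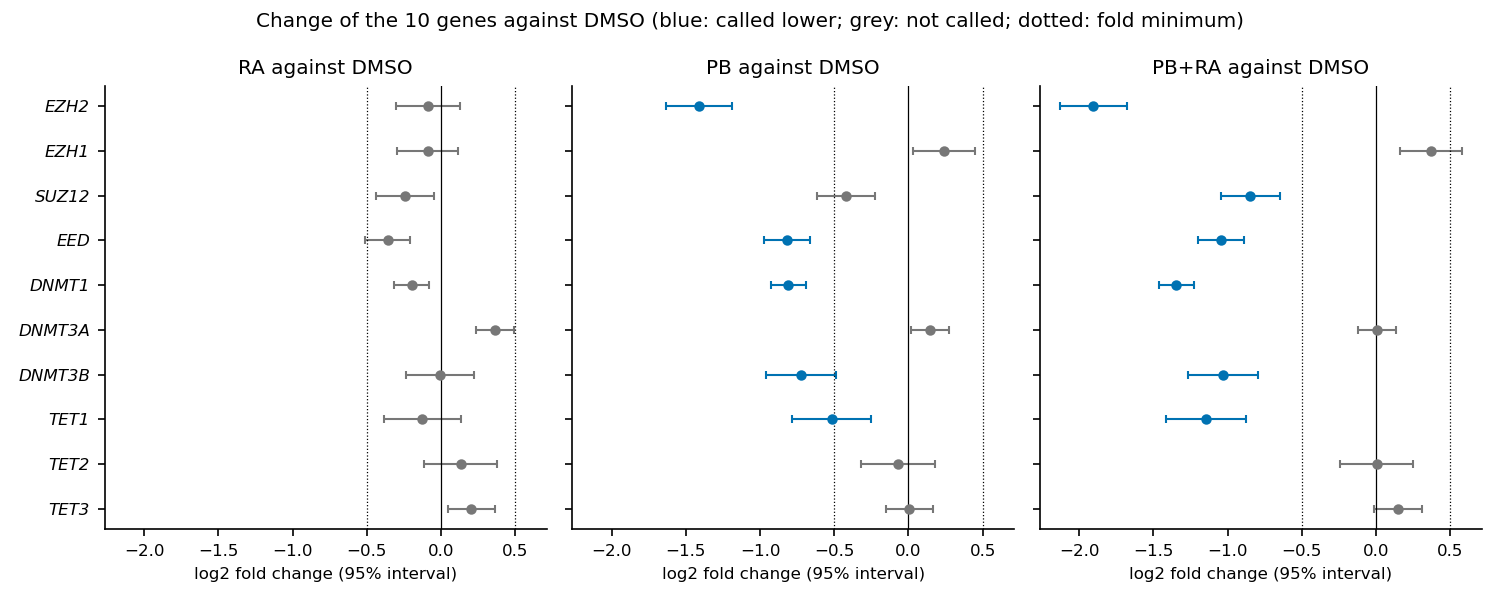
Log2 fold change against DMSO (horizontal axis) of the 10 genes with RA, PB and PB+RA, with 95% intervals from edgeR's quasi-likelihood fit and dotted lines at the fold minimum of 0.5 on either side of 0. No gene was called with RA, 5 were called lower with PB and 6 with PB+RA, and the grey intervals of DNMT3A, TET2 and TET3 with PB+RA span 0.

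Adding RA to PB called 2 of the 10 lower (DNMT1 and TET1) and 0 higher, beside 7.27% of all genes lower and 9.02% higher. At an unadjusted p below 0.05, 7 were lower and 0 higher by edgeR's test. Of the 10, 6 had an adjusted p below 0.05 in this comparison, with or without passing the fold minimum. Adding PB to RA called 6 lower (EZH2, SUZ12, EED, DNMT1, DNMT3B and TET1) and 0 higher, beside 14.1% of all genes lower and 14.9% higher. DESeq2 and limma-voom called 0 higher in both, and EZH1 was higher against RA at an unadjusted p below 0.05 (edgeR). In the PB+RA against RA comparison EZH2 changed by -1.82 ± 0.11 (SE), adjusted p = 8.07e-10. DNMT1 changed by -1.15 ± 0.06 (SE), adjusted p = 1.28e-10. DNMT3B, TET1 and EED changed by -1.03, -1.02 and -0.69 on the log2 scale.

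Whether the 2 agents together gave more or less than the sum of their single log2 changes was tested as an interaction. It was called for 1 of the 10 genes, DNMT3A, in the lower direction and for 0 in the higher, where 3.02% of all genes were called lower and 0.415% higher. DESeq2 called 0 of the 10 and limma-voom 1. At an unadjusted p below 0.05 edgeR's test had 4 lower and 0 higher. The single changes of DNMT3A summed to 0.51, and the observed PB+RA change was 0.01, a difference of -0.51 ± 0.09 (SE), adjusted p = 0.00297. The call rests on the fold minimum, which the value only just passed. It was lost when any 1 of 11 of the 16 libraries was left out (values from -0.43 to -0.49 in those), and the adjusted p stayed between 5.37e-06 and 0.0157 over all alternatives. DNMT1 was at -0.34 ± 0.08 (SE), adjusted p = 0.0171 beyond the sum of its single changes, under the fold minimum, and at -0.23 (adjusted p = 0.119) after the GC and length correction. TET1 had an interaction of -0.50 ± 0.18 (SE), adjusted p = 0.126, which was called when the replicate number was added to the fit as a block (-0.51, adjusted p = 0.023). It was called in only 1 of 28 alternatives, over which the TET1 interaction ran from -0.69 to -0.24. EZH2 had one of -0.41 ± 0.15 (SE), adjusted p = 0.13. EED, with 0.13 ± 0.10 (SE), adjusted p = 0.589, was below DMSO with each agent, and its combined change of -1.05 did not exceed the sum of -1.17.

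**Figure D3:**
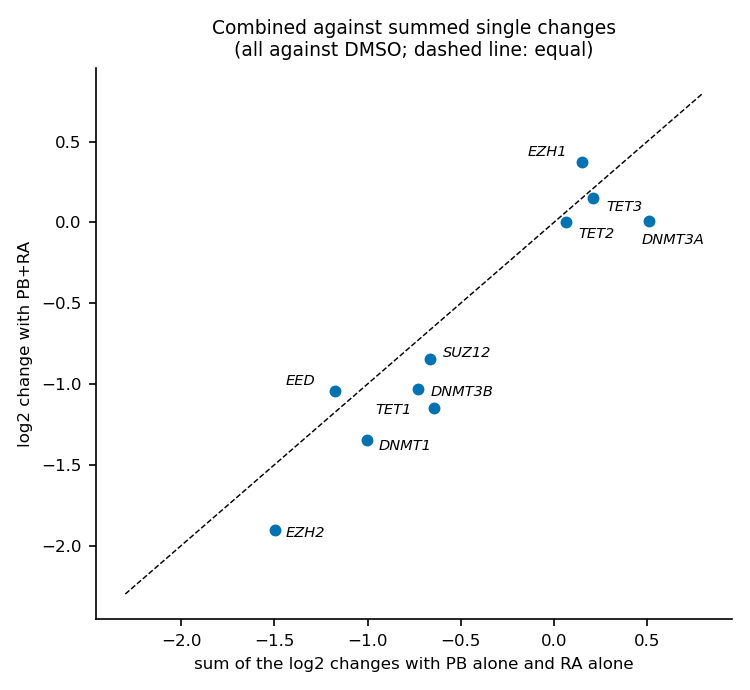
Log2 change with PB+RA against DMSO (vertical axis) plotted against the sum of the log2 changes with PB alone and RA alone (horizontal axis) for the 10 genes, with a dashed line where both are equal. DNMT3A lies farthest below the line (0.51 summed, 0.01 observed), EZH2, TET1 and DNMT1 lie below it, and EED lies slightly above.

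Levels of different genes were compared per kb of merged exons (CPM per kb). In DMSO DNMT1 was first at 31.5 CPM per kb, then EZH2 at 11.2, SUZ12 at 9.19, DNMT3A at 8.67, EED at 5.18 and EZH1 at 3.40. They were followed by TET3 at 2.18, DNMT3B at 2.04, TET2 at 1.83 and TET1 at 1.64 CPM per kb. SUZ12 and DNMT3A overlapped in range, as did each neighbouring pair among TET3, DNMT3B, TET2 and TET1. With PB+RA the order was DNMT1 at 12.6, DNMT3A at 8.88, SUZ12 at 5.22, EZH1 at 4.48, EZH2 at 3.06 and EED at 2.56 CPM per kb. TET3 was at 2.47, TET2 at 1.87, DNMT3B at 1.02 and TET1 at 0.759 CPM per kb. The PB+RA ranges overlapped between SUZ12 and EZH1, EZH2 and EED, EED and TET3, and TET3 and TET2. The place of EZH1 above EZH2 holds for merged exons and not for the longest transcripts (6.75 and 7.33 CPM per kb). DNMT1 stayed first and TET1 last in all 4 groups, also when the length of the longest transcript was used.

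The balance between the 2 catalytic subunits of PRC2 differed between the groups. The ratio of EZH1 to EZH2 (CPM per kb) was 0.303 ± 0.0349 (SD, n = 4) in DMSO and 0.302 ± 0.0359 with RA. It was 0.959 ± 0.0998 with PB and 1.49 ± 0.225 with PB+RA. The PB range (0.855 to 1.09) and the PB+RA range (1.19 to 1.74) did not overlap each other or the DMSO range (0.261 to 0.344). EZH1 thus made up 23.2% of the summed level in DMSO and 59.5% with PB+RA. The absolute ratio depends on the gene model: with the longest transcript of each gene it was 0.191 in DMSO and 0.936 with PB+RA, so which of the 2 is higher with PB+RA cannot be said. The change in the ratio is the same under either length.

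Among the methyltransferases the ratio of DNMT3A to DNMT1 (CPM per kb) was 0.276 ± 0.0188 in DMSO, 0.408 ± 0.0312 with RA, 0.534 ± 0.0337 with PB and 0.704 ± 0.0129 with PB+RA (SD, n = 4). None of these 4 ranges overlapped. With the longest transcript of each gene the ratio was 0.186 in DMSO and 0.475 with PB+RA. The shares that follow are for merged exons and likewise depend on the gene model. DNMT1 made up 74.6% ± 1.08 of the summed level of the 3 methyltransferases in DMSO and 56.02% ± 0.813 with PB+RA. DNMT3A made up 20.6% ± 1.12 in DMSO and 39.4% ± 0.186 with PB+RA. DNMT3B had a share of 4.84% ± 0.351 in DMSO and 4.53% ± 0.682 with PB+RA. TET1 went from 29.1% ± 1.20 of the summed TET level in DMSO to 14.9% ± 1.70 with PB+RA, and TET3 from 38.6% ± 1.32 to 48.6% ± 2.43.

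**Figure D4:**
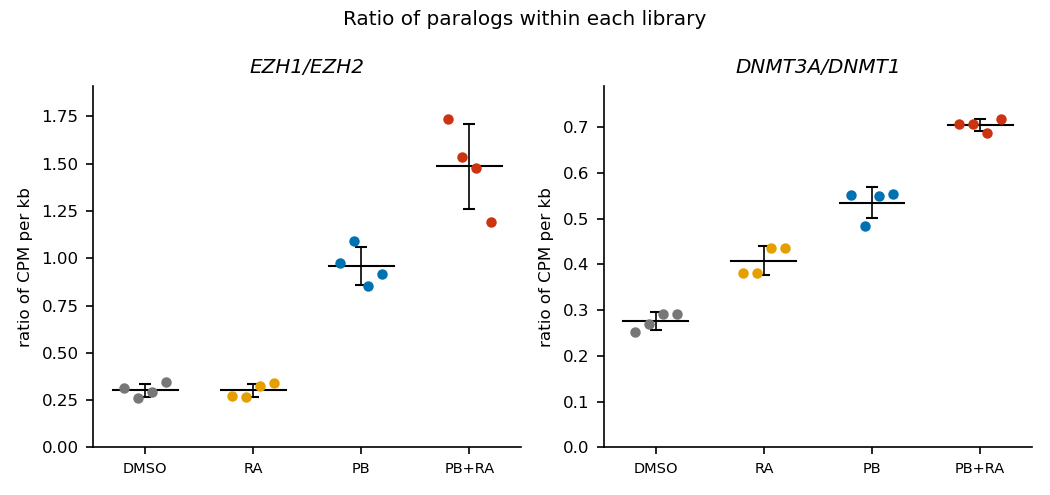
Ratio of EZH1 to EZH2 and of DNMT3A to DNMT1 within each library, in CPM per kb of merged exons (vertical axes from 0), with 1 point per library and bars for the mean ± SD of 4 libraries. The mean EZH1 to EZH2 ratio is 0.303 in DMSO, 0.302 with RA, 0.959 with PB and 1.49 with PB+RA, and the 4 groups do not overlap in the DNMT3A to DNMT1 ratio.

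The summed level of proliferation markers was lowest with PB+RA, as were the group means of the 6 genes called lower there. The sum over 12 such genes (MKI67, TOP2A, CCNA2, CDK1 and others) was 4250 to 4326 CPM in DMSO and 3348 to 3638 CPM with RA. It was 2111 to 2409 CPM with PB and 1099 to 1350 CPM with PB+RA, and replicates 1 and 2 were below replicates 3 and 4 in both PB groups, as for EZH2. All 12 were lower with PB (median -0.91) and all 12 with PB+RA (median -1.95), and 1 of 12 was with RA (median -0.33). MKI67, a protein of dividing cells, changed by -2.88 ± 0.16 (SE), adjusted p = 3.06e-10, and CCNA2, cyclin A2, by -3.01 ± 0.11 (SE), adjusted p = 1.52e-12, with PB+RA. The part of proliferation in the changes of the 10 genes was not tested. In bulk RNA, fewer cells that express a gene and less RNA of it per cell cannot be told apart.

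The genes with the most similar profile to each of the 10 were found by the root mean square (RMS) difference of centred log2 CPM over the 16 libraries, among the 10002 genes that averaged 10 CPM or more. It is a description, since all genes share the libraries and their depth. For EZH2 they were NDE1 (0.0918), DEK (0.112) and DONSON (0.114). For SUZ12 they were PKM (0.0710), PPP1CC (0.0730) and XPO1 (0.0808), and for EED PHF5A (0.0846), SRSF2 (0.0893) and NT5C (0.0894). DNMT1 was nearest to RFC4 (0.0476), LMNB2 (0.0593) and MCM7 (0.0630), the smallest RMS difference (0.0476) being that to RFC4, a subunit of the replication clamp loader. DNMT3B was nearest to SENP1 (0.114), PPIL3 (0.120) and CDK2AP1 (0.121), and TET1 to LIN28B (0.116), NUP155 (0.128) and MYH10 (0.144). For EZH1 they were WBP2 (0.0887), FCSK (0.0957) and TUBG2 (0.101). DNMT3A was nearest to SEPTIN6 (0.0768), SINHCAF (0.0833) and PATZ1 (0.0887), TET2 to SLC5A3 (0.0795), RC3H2 (0.0842) and YEATS2 (0.0921) and TET3 to NAA35 (0.0586), GON4L (0.0820) and GARS1 (0.0836). Among the 10 themselves the closest pair was TET2 and TET3 (0.159), then DNMT3A and TET3 (0.162), DNMT3A and TET2 (0.166), SUZ12 and EED (0.173) and DNMT1 and DNMT3B (0.177). The RMS of the centred profile itself was 0.125 for TET3, 0.166 for DNMT3A and 0.172 for TET2. It was 0.335 for SUZ12, 0.413 for EED, 0.534 for DNMT1 and 0.469 for DNMT3B. TET2, TET3 and DNMT3A thus differed from each other about as much as from a flat profile. Their closeness does not show a shared change.

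The counts in the following lists stand beside 17.9% of all genes called lower and 24% higher with PB+RA, 11.3% and 16.9% with PB, and 2.54% and 10.8% with RA. Of 9 accessory and histone chaperone subunits tested, 1 was higher and 3 were lower with PB+RA (median -0.17), 0 and 3 with PB, and 1 and 0 with RA. PHF19, which recruits PRC2 to chromatin, went from 129.9 CPM in DMSO to 29.3 CPM with PB+RA (-2.18 ± 0.11 (SE), adjusted p = 3.68e-11). The histone chaperones RBBP7 and RBBP4 changed by -0.89 ± 0.05 (SE), adjusted p = 9.12e-11 and by -0.52 ± 0.05 (SE), adjusted p = 1.26e-07. JARID2, another recruiting subunit, rose with RA (0.71 ± 0.05 (SE), adjusted p = 1.72e-08) and with PB+RA (0.67 ± 0.05 (SE), adjusted p = 1.41e-09). Of 21 subunits of PRC1, the complex that ubiquitinates histone H2A, 5 were higher and 4 lower with PB+RA (median 0.13), 1 and 2 with PB, and 3 and 0 with RA, shares with PB+RA near those of all genes. PCGF6 changed by -1.33 ± 0.07 (SE), adjusted p = 1.46e-10, and BMI1 by -0.61 ± 0.15 (SE), adjusted p = 0.00195. CBX7, which reads the PRC2 mark, was higher, at 0.93 ± 0.23 (SE), adjusted p = 0.00204, and so was PCGF1, at 0.67 ± 0.09 (SE), adjusted p = 3.69e-06. CBX7 was low throughout, with a mean of 1.18 CPM in DMSO and 2.26 CPM with PB+RA. Of 5 tested genes for removal of the PRC2 and PRC1 marks, 1 was higher and 1 lower with PB+RA. The H3K27 demethylase KDM6B rose with PB (0.81 ± 0.05 (SE), adjusted p = 6.89e-09), with RA (0.57 ± 0.05 (SE), adjusted p = 1.34e-06) and with PB+RA (0.90 ± 0.05 (SE), adjusted p = 3.82e-10), and ASXL2 changed by -0.76 ± 0.10 (SE), adjusted p = 4.49e-06 with PB+RA. EZHIP, RING1 and ASXL3 were too low to be tested.

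Most of the partners of DNMT1 in maintenance methylation fell with PB and with PB+RA. Of 8 tested, 6 were lower with PB (median -1.08) and 6 with PB+RA (median -2.04), and 0 were called with RA. UHRF1, which brings DNMT1 to hemimethylated DNA, changed by -1.28 ± 0.14 (SE), adjusted p = 1.13e-06 with PB and by -2.52 ± 0.14 (SE), adjusted p = 3.49e-10 with PB+RA. PCNA, the replication clamp that DNMT1 binds, changed by -2.66 ± 0.15 (SE), adjusted p = 3.66e-10 with PB+RA. CDCA7, which works with the remodeller HELLS, and its relative CDCA7L changed by -2.21 and -2.12 on the log2 scale. UHRF1 and PCNA are also known as genes of dividing cells. TRDMT1, a relative of the methyltransferases that acts on transfer RNA, changed by -0.97 ± 0.12 (SE), adjusted p = 1.62e-06 with PB+RA.

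Of 8 genes for readers of methylated CpG and related proteins, 1 was higher and 3 were lower with PB+RA (median 0.10), 1 and 2 with PB, and 0 were called with RA. MBD2, MBD3 and MBD4 changed by -1.07, -0.79 and -0.67 on the log2 scale, and ZBTB4 changed by 0.68 ± 0.06 (SE), adjusted p = 1.6e-08. Of 12 genes of active demethylation and its repair, 4 were higher and 1 lower with PB+RA (median 0.05), 4 and 2 with PB, and 1 and 0 with RA. The glycosylases NEIL2 and NEIL1 changed by 1.33 ± 0.12 (SE), adjusted p = 5.93e-08 and by 1.09 ± 0.32 (SE), adjusted p = 0.00699, and GADD45G by 1.07 ± 0.22 (SE), adjusted p = 0.000438. NEIL1 averaged only 0.238 CPM in DMSO and 0.512 CPM with PB+RA, so its change rests on few reads. NEIL2 averaged 34.7 and 88.9 CPM in the same groups. IDH2, the mitochondrial isocitrate dehydrogenase that makes the TET cofactor 2-oxoglutarate, changed by -1.33 ± 0.07 (SE), adjusted p = 1.26e-10. Of 6 genes of the methyl donor cycle, 1 was lower with PB+RA, MAT2B (-0.56 ± 0.11 (SE), adjusted p = 0.000259), 1 was with PB and 0 were with RA.

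**Figure D5:**
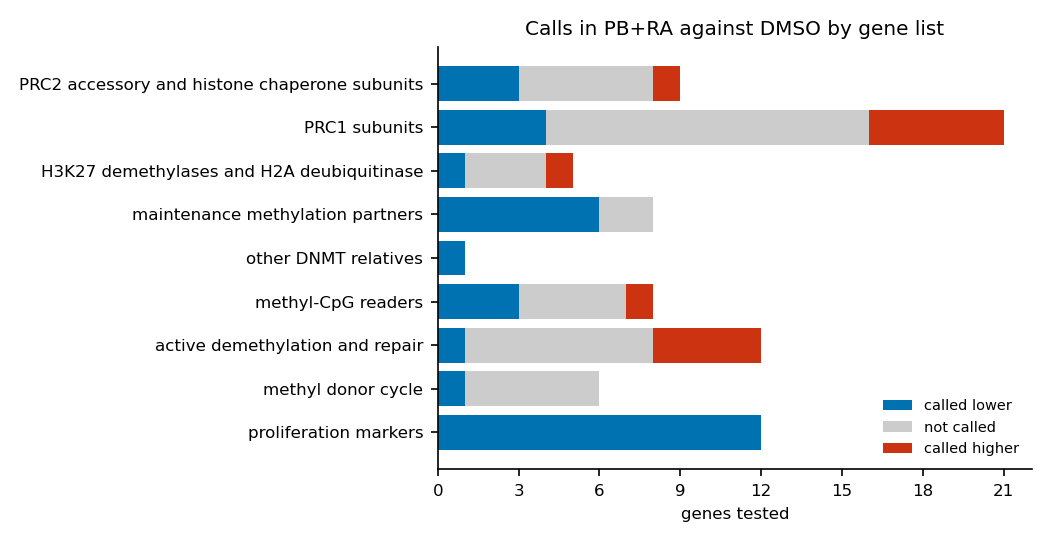
Number of genes tested in each list (horizontal axis), divided into genes called lower, not called and called higher in PB+RA against DMSO by edgeR's quasi-likelihood test. All 12 proliferation markers and 6 of 8 maintenance methylation partners were called lower, and the other lists of more than 1 gene held genes called in both directions or 1 gene called lower.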

How the data were processed

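Poly(A) RNA of 16 SK-N-BE(2)C libraries, 4 groups of 4 by the agent in the labels, was sequenced as paired ends after a directional library preparation. Per the labels (the submitters' processing notes, which give the versions), the authors trimmed reads with Trim Galore 0.6.4, aligned them to hg19 with STAR 2.6.1d and deposited STAR's raw counts per gene symbol, without pooling replicates. The study's resource list names another STAR release. The annotation release and the strand column are not given in the sources used here. The authors also deposited CPM, which equal each count divided by the library's total and scaled to CPM, and a table of their DESeq2 1.32.0 comparisons (fold changes and p-values), which was not used. Total counts per library were 19515779 to 31620821, so a count of 3 corresponds to 0.0949 to 0.154 CPM. Intervals cover the spread between libraries.

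Counts were tested in R 4.3.3 with edgeR 4.0.16 (filterByExpr, TMM scaling, robust quasi-likelihood fit with 1 mean per group over all 16 libraries, Benjamini-Hochberg adjustment over 15415 genes), with log2 fold changes and SE from that fit, in 5 comparisons and the interaction. DESeq2 1.42.0, limma-voom (limma 3.58.1) and other scalings, filters, fold minimums and sets of replicates were alternatives. Calls needed an adjusted p below 0.05 and an absolute log2 fold change above 0.5. The code was tested on simulated data. GC content and exon lengths came from GENCODE gene models on GRCh37 (95.2% of tested genes had a value). Same-numbered libraries deviated from their group means together (r = 0.330 to 0.573 in 24 pairs, against -0.492 to 0.447 in 72 pairs of different numbers), so the numbers pair the libraries and the fit with the replicate number as a block was an alternative. All pairs of replicates differed by more than sampling noise (chi-square per degree of freedom of 3.11 to 31.1).

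All 10 genes are described, each with its values in some of the comparisons and within the counts in all of them. Of the other lists (PRC2 accessory subunits, PRC1, H3K27 demethylases, maintenance partners, methyltransferase relatives, methyl-CpG readers, active demethylation, methyl donor cycle, proliferation markers), at most the 4 genes called in PB+RA against DMSO with the largest absolute change are named, and for each of the 10 the 3 genes of the most similar profile. The 10 genes and the lists were chosen with earlier results of these data known.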

Additional observations from a re-analysis of the deposited data

Results flagged for a closer look

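In the PB+RA group the DNMT3B level of replicate 4, 8.86 CPM, stood apart from the other 3 libraries (6.26 to 6.48 CPM), with a gap of 0.917 of the group's range, above Dixon's 95% critical value for 4 values. This was 1 of 40 groups of 4 libraries tested, and chance alone marks about 1 in 20. Without that library the DNMT3B log2 fold change against DMSO was -1.16, against -1.03 with it, and it was called either way by edgeR's quasi-likelihood test.

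For DNMT3A the effect of PB differed between cells with and without RA. The interaction was -0.51 ± 0.09 (SE), adjusted p = 0.00297 (edgeR's quasi-likelihood test), with a log2 change of 0.15 from DMSO to PB and -0.36 from RA to PB+RA. DNMT3A was higher with PB in 4 of 4 same-numbered pairs without RA and lower in 4 of 4 pairs with RA. The PB change without RA was -0.027 after the GC and length correction. The interaction lay under the fold minimum when any 1 of 11 of the 16 libraries was left out and by DESeq2 (-0.47). After the GC and length correction it was -0.40 (adjusted p = 0.0119). The summed proliferation markers were lowest in PB+RA (1099 to 1350 CPM), and their part in this result was not tested.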

How the results depend on the processing

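The count of the 10 genes called by edgeR's quasi-likelihood test was 5 for PB, 0 for RA, 6 for PB+RA against DMSO, 2 against PB, 6 against RA and 1 for the interaction. With no fold minimum, RA gave 5, PB+RA against PB 6 and the interaction 2. With a minimum of 1, PB gave 1, PB+RA against PB 0 and the interaction 0. Within replicates 3 and 4, PB+RA against PB gave 1, which was EZH2 (-0.51), while DNMT1 (-0.49) and TET1 (-0.43) lay under the fold minimum. The interaction gave 0 with RLE size factors, no filter on low counts, DESeq2, the GC and length correction (with or without the replicate block), replicates 1 and 2 alone, and replicates 3 and 4 alone. With the replicate block it gave 2 (DNMT3A and TET1), and the block changed no other call of the 10 genes. Leaving out 1 library at a time gave 4 to 5 for PB, 0 for RA, 6 for PB+RA against DMSO, 1 to 3 against PB, 6 to 7 against RA and 0 to 1 for the interaction. For PB+RA against PB, the 1 came from leaving out PB replicate 3. The causes were not tested, beyond the fold minimum itself and the smaller number of libraries.

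Under the GC and length correction DNMT3A turned to -0.027 with PB and -0.24 with PB+RA, and TET3 to -0.16 with PB. With the replicate block added to that correction, DNMT3A was at -0.029 with PB and -0.24 with PB+RA, TET3 at -0.16 with PB and TET2 at -0.15 with PB+RA. A further 63 values changed sign between settings while within error of 0 in both fits (unadjusted p of 0.05 or more). The calls of EZH2, SUZ12, EED, DNMT1, DNMT3B and TET1 in PB+RA against DMSO kept their direction and stayed called in every alternative with a fold minimum of 0.5. With the longest transcript in place of merged exons, 5 of 10 genes kept their place in the order of levels in DMSO, 6 with RA, 4 with PB and 6 with PB+RA. At 14.1 CPM or less on average, DNMT3B in every group had the fewest counts of the methyltransferases and the wider intervals.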
